A study of Mus musculus with 24 samples.

Results

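The integrin and laminin genes of mouse liver were taken as the features whose gene symbol is Itga, Itgb, Lama, Lamb or Lamc followed by 1 or 2 letters or digits, with Itgbl1 left out because its product is not an integrin chain. The rule, which uses no measured value, found 38 of the 41388 features in the libraries. They were 9 integrin chains known mainly from leukocytes, the platelet chain Itga2b, 17 integrin chains that bind matrix and 11 laminin chains. Of the 38, 31 passed the limit on low counts and were tested (7 leukocyte, 1 platelet, 13 matrix-binding and 10 laminin genes), and 7 did not.

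Bulk RNA sequencing was carried out on whole liver of male mice on a C57BL/6J background. Adn-Lpin1-/- mice carried floxed Lpin1 alleles and a Cre driven by the adiponectin promoter, which deletes the phosphatidic acid phosphatase lipin 1 in adipocytes, and WT mice were littermates homozygous for the floxed alleles without Cre. The mice were 8 weeks old at the start of a low-fat diet (LFD) with 10% or a high-fat diet (HFD) with 60% of kcal from fat, for which the labels give 16 weeks and the methods of the study another duration, and were fasted for 4 hours before the liver was taken. Each of the 4 groups, WT LFD, Adn-Lpin1-/- LFD, WT HFD and Adn-Lpin1-/- HFD, had 5 libraries of single mice, and 1 more library of RNA pooled from those mice, which was left out of the tests. Since Lpin1 is lost in adipocytes and not in liver cells, its count in these libraries is no check of genotype.

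Integrins are cell surface receptors made of an alpha and a beta chain. Most bind matrix proteins such as collagens, laminins, fibronectin and vitronectin and link them through talin and kindlin to the actin cytoskeleton, whereas a leukocyte branch built on Itgb2 or Itgb7 binds counter-receptors on other cells. Laminins are secreted trimers of an alpha, a beta and a gamma chain that polymerise into basement membranes, where nidogen and perlecan join them to collagen networks. In liver, the hepatocyte plate faces the sinusoid without a continuous basement membrane, and laminins are found mainly around bile ducts, portal vessels and central veins, with more along the sinusoids in fibrosis.

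Total counts per mouse lay between 36260187 and 81072794, with a lower median in WT LFD (40777580) than in the other groups (52955319 to 62306028). Defining markers of hepatocytes were high in every library, with 78600 to 124000 CPM summed over 6 genes, and the liver label was met. Between the genotypes, 1 of these 6 was called lower on the LFD (16.7%, near the 14.4% of all genes called, median log2 fold change -0.26). With the HFD 4 of 6 were called lower (66.7%, where 18.6% of all genes were called, median -0.38). Hnf4a and Ttr were called on neither diet. The sums of the 6 markers were 105000 to 116000 CPM in WT LFD against 78600 to 103000 CPM in Adn-Lpin1-/- LFD. With the HFD they were 99600 to 124000 CPM against 82100 to 107000 CPM. Their part in the results that follow was not tested. In bulk RNA, fewer cells of a type and less RNA per cell cannot be told apart. Among the libraries that stood apart were Adn-Lpin1-/- HFD mouse 2, with the highest summed Kupffer cell and macrophage markers (430 CPM against 116 to 289 CPM in the other 19 mice), and WT LFD mouse 3, with the lowest summed stellate cell markers (99.6 CPM against 171 CPM or more in the others). Adn-Lpin1-/- LFD mouse 2 had the highest mesothelial and Adn-Lpin1-/- HFD mice 1 to 3 the highest adipocyte marker sums, given beside the genes concerned.

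Per length, the beta chains Itgb1 and Itgb5 stood above every other member. The level of Itgb1, the partner of most matrix-binding alpha chains, was 31 RPKM in the mean of the 20 mice (range 28.0 to 34.5), and that of Itgb5, which pairs with Itgav, was 20.1 RPKM (15.3 to 26.5). The fibronectin receptor chain Itga5 came next at 4.81 RPKM (3.62 to 6.38), so that the ranges of these 3 genes did not overlap. Below them the ranges of neighbours overlapped. Among the alpha chains, the laminin receptor chain Itga7 had 2.58 RPKM, the collagen receptor chain Itga1 2.37 RPKM, the laminin receptor chain Itga3 1.91 RPKM and the RGD-binding chain Itgav 1.43 RPKM. The highest laminin levels were those of Lamb3 (2.12 RPKM) and Lamc1 (2.10 RPKM), of which Lamc1 had the higher group mean except in Adn-Lpin1-/- HFD, where Lamb3 had 4.18 RPKM, and the highest leukocyte integrin levels those of Itgb2 (1.74 RPKM) and Itgal (1.5 RPKM). The 5 laminin alpha chains lay between 0.0914 RPKM for Lama2 and 0.553 RPKM for Lama3.

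**Figure D1:**
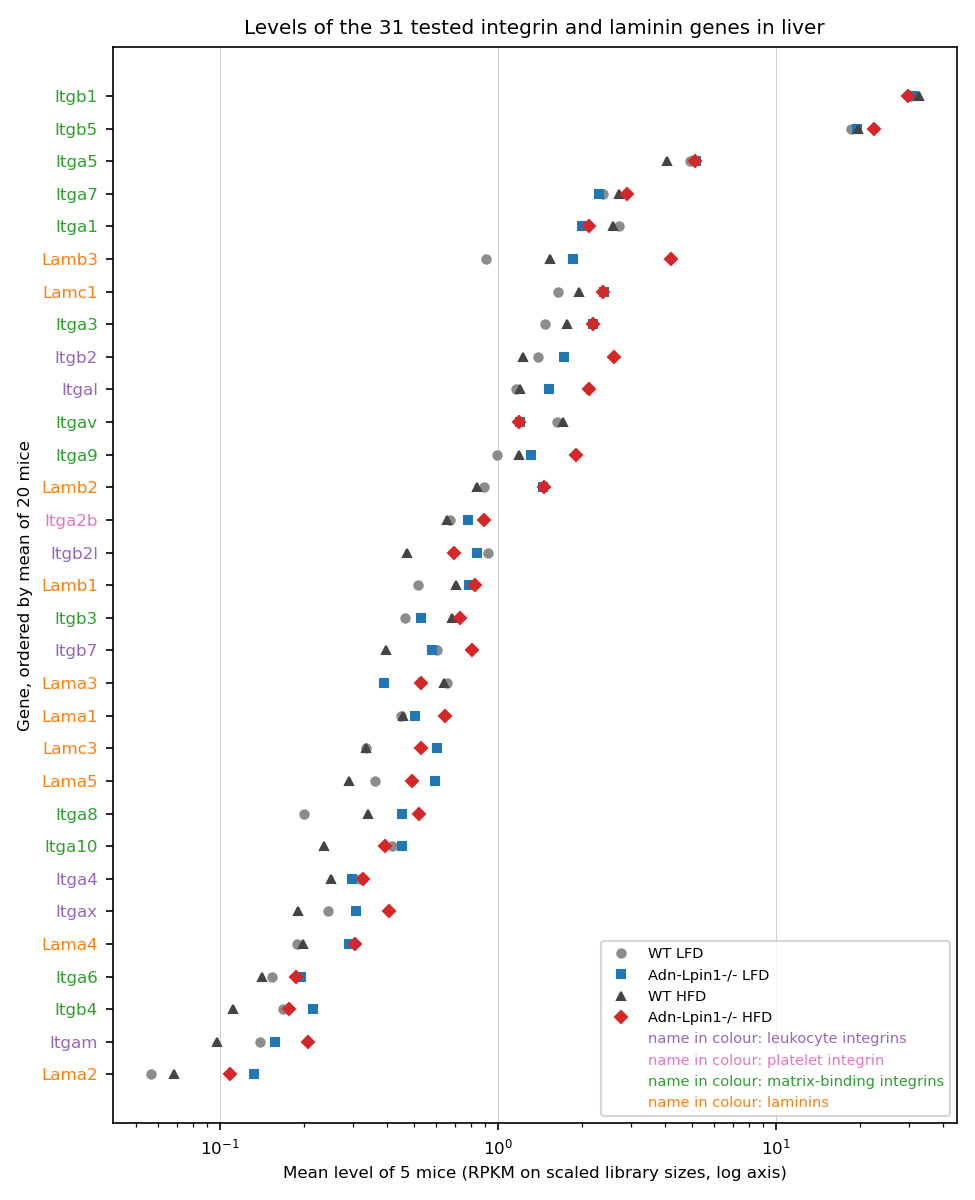
Mean level of each of the 31 tested genes in the 5 mice of each group, in RPKM on scaled library sizes and on a log axis, with the genes ordered by their mean over 20 mice and names coloured by class. Itgb1 and Itgb5 lie above 15 RPKM in every group, above all other genes.

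The genes under the limit of more than 1 CPM in at least 4 libraries included the leukocyte chains Itgad and Itgae, the collagen receptor chains Itga2 and Itga11, and the beta chains Itgb6 and Itgb8. These 6 were above 1 CPM in no library. Raw counts per mouse were 0 to 16 for Itgb6 and 0 to 15 for Itga2, and no test is given for these genes. Among the tested members, 22 were above 1 CPM in all 20 libraries. The leukocyte chains Itgam and Itgax passed with 9 libraries each, of which 3 and 4 were from Adn-Lpin1-/- HFD.

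The comparison of Adn-Lpin1-/- with WT mice on each diet asked how loss of lipin 1 in adipocytes changed the liver. On the LFD, 7 members were higher and 3 lower in Adn-Lpin1-/- mice at an adjusted p at or below 0.05, 10 of the 31 tested (32.3%), where 14.4% of all 13052 genes tested were called (6.27% higher and 8.11% lower). On the HFD, 11 were higher and 2 lower, 13 of 31 (41.9%), where 18.6% of all genes were called (9.87% higher and 8.78% lower). The tested members had a median log2 fold change of 0.31 for the LFD and 0.57 for the HFD, against 0.01 and 0.00 over all genes tested. In both comparisons together 19 members were called, of which 4 were called on both diets: Lama5 and Lamb2, which were higher, and Itga1 and Itgav, which were lower. The values of the groups did not overlap for 6 members on the LFD, where this held for 10.1% of all genes, and for 3 on the HFD, where it held for 11.4%. Two-sided exact permutation p-values of the called members, unadjusted, lay between 0.00794, the smallest that 5 against 5 mice allow, and 0.0397, except 0.0873 for Lamb3 on the HFD.

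The classes differed in which diet their calls came from. No leukocyte integrin was called on the LFD and 4 of 7 were higher on the HFD, whereas for the 10 laminins the LFD gave 6 calls and the HFD 4. Among the matrix-binding integrins 2 were higher and 2 lower on each diet (30.8%). Leaving out Adn-Lpin1-/- HFD mouse 2 lowered the HFD calls from 13 to 6, and leaving out Adn-Lpin1-/- LFD mouse 2 lowered the LFD calls from 10 to 7. The genotype effect was called as unlike between the diets for no member, as given further on, so that a call on 1 diet alone does not show that the diets differ.

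**Figure D2:**
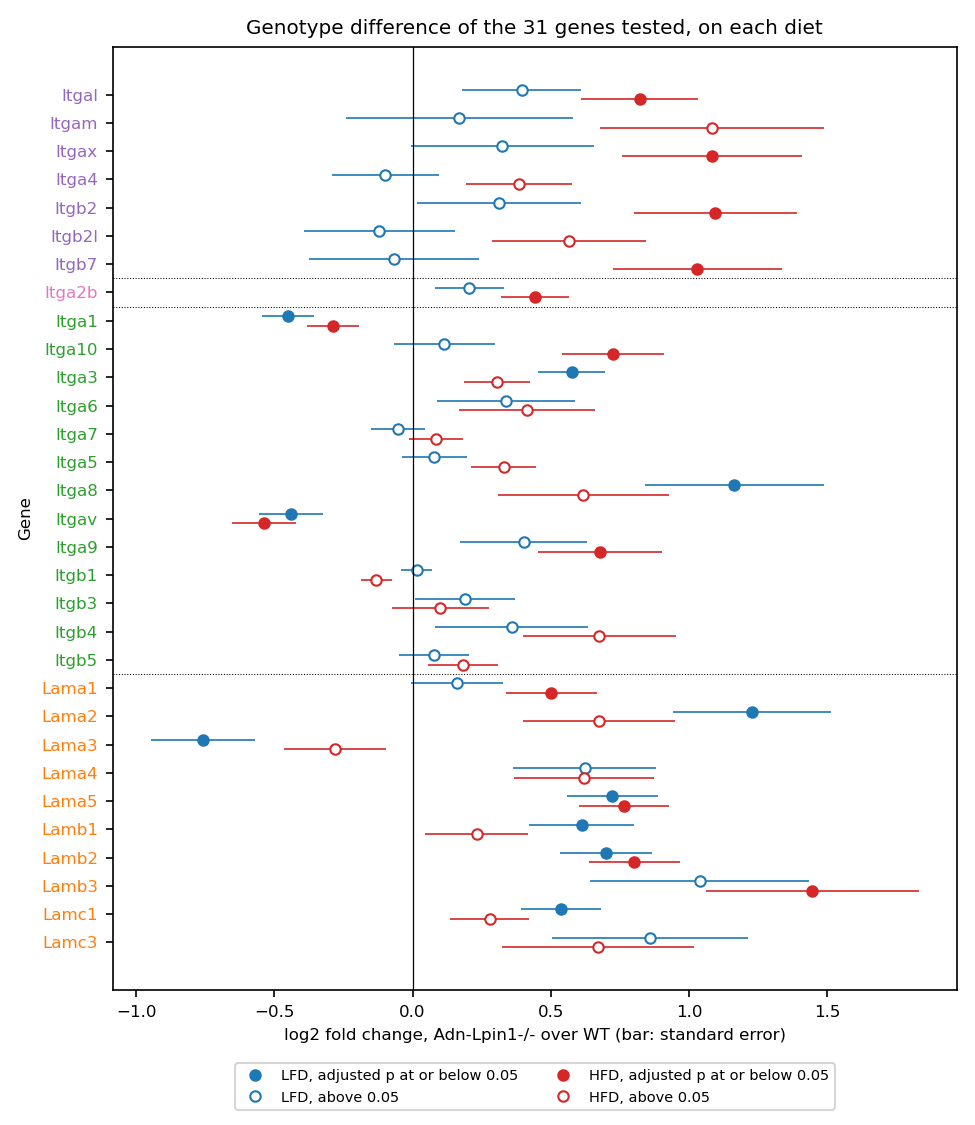
Log2 fold change of Adn-Lpin1-/- over WT for the 31 tested members on the LFD (blue) and the HFD (red), with standard errors of the edgeR fit as bars and filled points for adjusted p at or below 0.05. Every leukocyte integrin lies above 0 on the HFD, with 4 filled points, and Itga1 and Itgav lie below 0 with filled points on both diets.

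Of the 7 tested leukocyte integrins, 4 were higher in Adn-Lpin1-/- livers on the HFD (57.1%, where 18.6% of all genes were called). None was called on the LFD by edgeR, DESeq2 or voom, with 0 at an unadjusted p under 0.05 in edgeR. On the HFD, the log2 fold changes of the 7 tested genes ran from 0.38 to 1.09 with a median of 1.03, and on the LFD from -0.12 to 0.40 with a median of 0.17. Itgb2, the beta chain shared by the leukocyte receptors with Itgal, Itgam and Itgax, was 3.56, 3.35, 3.86, 4.50 and 3.44 CPM in WT HFD mice and 8.27, 15.4, 4.31, 4.94 and 7.06 CPM in Adn-Lpin1-/- HFD mice. Adn-Lpin1-/- mouse 2 was far above the rest, and mouse 3 lay below the highest WT mouse. The gene was 2.14-fold higher (log2 1.09 ± 0.29 SE, adjusted p = 0.0153), and without Adn-Lpin1-/- HFD mouse 2 the log2 difference was 0.72 with an adjusted p of 0.0652. On the LFD it was 4.24 ± 1.33 CPM in WT and 5.28 ± 1.67 CPM in Adn-Lpin1-/- mice (SD, n = 5 each, adjusted p = 0.518).

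Itgal, the alpha chain of the lymphocyte receptor LFA-1, was 7.19, 8.34, 7.73, 6.97 and 8.06 CPM in WT HFD mice and 13.6, 21.7, 7.23, 11.3 and 13.9 CPM in Adn-Lpin1-/- HFD mice. All Adn-Lpin1-/- mice but mouse 3 lay above every WT mouse. It was 1.77-fold higher (log2 0.82 ± 0.21 SE, adjusted p = 0.0125), and it was the leukocyte integrin that stayed called under every alternative, without Adn-Lpin1-/- HFD mouse 2 too. On the LFD, the means were 7.43 ± 1.74 CPM and 9.78 ± 2.03 CPM (adjusted p = 0.235).

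Itgax, the CD11c chain of dendritic cells and some macrophages, was low, with 0.657, 0.837, 1.11, 0.577 and 0.685 CPM in WT HFD mice and 1.63, 2.91, 1.25, 0.898 and 1.51 CPM in Adn-Lpin1-/- HFD mice. The groups overlapped by 1 mouse on each side. It was 2.12-fold higher (log2 1.08 ± 0.33 SE, adjusted p = 0.0262). The call was lost without WT HFD mouse 1, 4 or 5 (adjusted p = 0.057, 0.0597 and 0.0576) and without Adn-Lpin1-/- HFD mouse 2 (log2 0.78, adjusted p = 0.104).

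Itgb7, the partner of Itga4 and Itgae on gut-homing lymphocytes, was 1.13, 1.20, 1.30, 0.52 and 1.25 CPM in WT HFD mice and 1.92, 4.25, 1.35, 1.43 and 2.11 CPM in Adn-Lpin1-/- HFD mice. The groups did not overlap. It was 2.04-fold higher (log2 1.03 ± 0.31 SE, adjusted p = 0.0252). The call was lost without WT HFD mouse 4 (log2 0.85, adjusted p = 0.0598), without Adn-Lpin1-/- HFD mouse 2 (log2 0.65, adjusted p = 0.109) and in a fit of only the 2 groups (adjusted p = 0.0618).

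The other tested leukocyte chains did not pass the threshold on either diet. Itgam, the CD11b chain of monocytes, neutrophils and macrophages, had a log2 fold change of 1.08 ± 0.41 SE on the HFD with an adjusted p of 0.0666, and was called there by DESeq2 (adjusted p = 0.04) and voom (adjusted p = 0.0272). Itga4, which pairs with Itgb1 or Itgb7 and binds Vcam1, had 0.38 ± 0.19 (adjusted p = 0.169), and Itgb2l, a relative of Itgb2 known from granulocytes, 0.57 ± 0.28 (adjusted p = 0.16). Adn-Lpin1-/- HFD mouse 2 had the highest level of the 20 mice in 5 of the 7 tested leukocyte integrins.

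**Figure D3:**
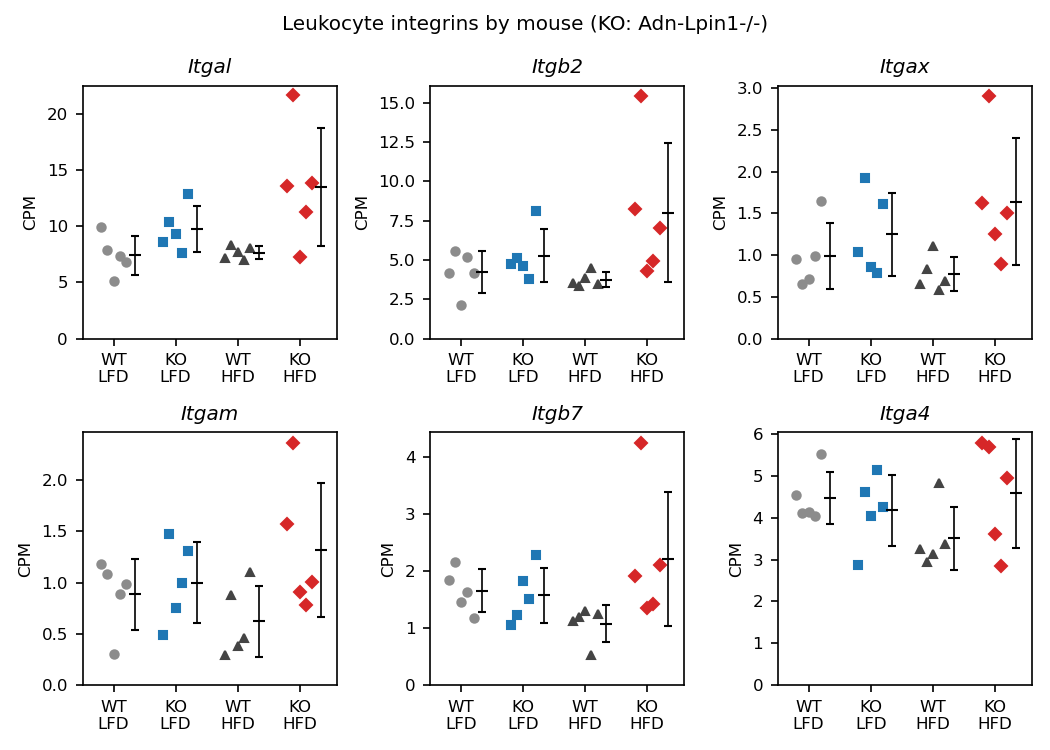
CPM of 6 leukocyte integrins in each mouse (points, mice 1 to 5 from left to right within a group), with the mean and SD of the 5 mice beside them. In each panel but that of Itga4, where mouse 1 is highest, the highest point is Adn-Lpin1-/- HFD mouse 2, at 21.7 CPM for Itgal and 15.4 CPM for Itgb2.

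Markers of immune cells were measured beside these genes. Of 8 Kupffer cell and macrophage markers, 6 were called higher on the HFD (75.0%, where 18.6% of all genes were called). None was called on the LFD, where edgeR gave 1 at an unadjusted p under 0.05. Their summed level ranged from 142 to 180 CPM in WT and 186 to 430 CPM in Adn-Lpin1-/- mice on the HFD, against 116 to 213 CPM and 145 to 289 CPM on the LFD. The macrophage colony-stimulating factor receptor Csf1r went from a mean of 28.2 CPM in WT HFD to 55.2 CPM in Adn-Lpin1-/- HFD (log2 0.97 ± 0.24 SE, adjusted p = 0.0109), and Cd68 from 8.07 to 14.3 CPM (adjusted p = 0.0079). Markers of T, NK and B cells were near the detection limit, with 2 of 9 tested, none called by edgeR on either diet (1 and 0 at an unadjusted p under 0.05 on the LFD and the HFD), and summed levels of 6.26 to 8.99 CPM in WT HFD and 5.68 to 11.3 CPM in Adn-Lpin1-/- HFD. The T cell markers did not move together. Cd3e had a mean of 0.521 CPM in WT HFD and 0.784 CPM in Adn-Lpin1-/- HFD, and 0.55 and 0.541 CPM in these genotypes on the LFD. On the HFD, Cd8a had 0.509 and 0.523 CPM and Cd4 3.08 and 2.93 CPM. Of 7 markers of infiltrating myeloid cells, 4 were tested and 1, Gpnmb, was called higher on each diet (25.0%, where 14.4% and 18.6% of all genes were called). The medians were 1.10 for the LFD, where all 4 had an unadjusted p under 0.05, and 1.00 for the HFD. The list summed to 11.8 to 19.1 CPM in WT and 17.4 to 23.4 CPM in Adn-Lpin1-/- mice on the LFD, and to 8.58 to 14.4 CPM and 12.5 to 17.3 CPM with the HFD. In the mean of each group, most of this sum came from Cd9, which edgeR called on neither diet. The sum therefore follows mainly that gene and not the list as a whole. The neutrophil gene S100a8, under the limit on low counts, had means of 0.199 CPM in WT and 0.354 CPM in Adn-Lpin1-/- mice on the LFD. With the HFD these were 0.346 CPM and 0.359 CPM. For S100a9, also under the limit, they were 0.431 and 0.419 CPM on the LFD and 0.835 and 1.08 CPM on the HFD. The part of these cells in the integrin differences was not tested.

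On the chromosomes, Itgam (chr7:128062640-128128160), Itgax (chr7:128129547-128150656) and Itgad (chr7:128154376-128223816) lie side by side on the plus strand of GRCm38, and Itgal lies on the same chromosome at chr7:127296260-127335137. Of these 4 genes, Itgal and Itgax were called on the HFD, Itgam was not, and Itgad stayed under the limit with 1 to 21 reads per mouse. Promoters from RefSeq (GRCm38.p6) were used for 24 of the 38 members, in 27 windows of the 250 bases before a start site. The other members, the called gene Lama3 among them, are not covered by the shares of member windows. Their absence here does not show that they lack a promoter in RefSeq. The 6-base motif GAGGAA or its reverse complement TTCCTC, a sequence bound by PU.1 and related ETS factors of myeloid cells, was in 14 of the 27 member windows (51.9%). It was in 23.3% of all 32851 windows of the same length. Among the leukocyte chains with a window, Itgam and Itgb2l held the motif, and Itga4, Itgax and Itgb7 did not. The other member windows with it were those of platelet, matrix-binding and laminin genes. The promoters of the called leukocyte chains with a window, shown to compare genes that were higher together, hold no match to the full 6 bases. Shorter matches were not counted. They hold 5 CpG dinucleotides each, where the median of all windows is 6. These promoters are written 5′ to 3′ on the strand of the gene, for Itgax from chr7:128129300-128129549 on the plus strand and for Itgb7 from chr15:102231936-102232185 on the minus strand, and capitals, absent here, would mark GAGGAA or GGGCGG on either strand.
Itgax: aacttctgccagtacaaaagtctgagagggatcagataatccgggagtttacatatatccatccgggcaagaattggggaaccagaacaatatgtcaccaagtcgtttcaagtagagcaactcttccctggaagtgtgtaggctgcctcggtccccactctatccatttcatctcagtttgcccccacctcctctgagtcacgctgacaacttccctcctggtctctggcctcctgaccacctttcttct
Itgb7: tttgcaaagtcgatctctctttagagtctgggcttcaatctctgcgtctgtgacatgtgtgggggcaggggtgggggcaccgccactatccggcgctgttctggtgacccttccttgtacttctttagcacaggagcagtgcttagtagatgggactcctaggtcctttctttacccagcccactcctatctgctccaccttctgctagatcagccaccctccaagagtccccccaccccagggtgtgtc

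The platelet chain Itga2b, which with Itgb3 forms the fibrinogen receptor of platelets, was 3.21, 3.73, 3.48, 4.48 and 3.00 CPM in WT HFD mice and 4.50, 5.71, 4.33, 5.09 and 4.70 CPM in Adn-Lpin1-/- HFD mice. Only WT mouse 4 and Adn-Lpin1-/- mouse 3 crossed. It was 1.36-fold higher (log2 0.44 ± 0.12 SE, adjusted p = 0.017), a call lost without WT HFD mouse 5 (adjusted p = 0.0541), without Adn-Lpin1-/- HFD mouse 2 (adjusted p = 0.0562) and with the trend with GC content removed (log2 0.33, adjusted p = 0.062). None of the 5 other platelet markers passed the limit on low counts. They summed to between 0.75 and 2.82 CPM per mouse, and the platelet factor Pf4 had group means of 0.47 to 0.777 CPM. The partner chain Itgb3 was not called on either diet, with 2.74 to 4.32 CPM in the group means.

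The collagen receptor chain Itga1 (chr13:114958079-115101964), which is found on sinusoidal endothelium and stellate cells in liver, was lower in Adn-Lpin1-/- mice on both diets. It was 14.4, 17.6, 15.2, 16.9 and 17.5 CPM in WT LFD mice and 11.3, 13.7, 11.9, 11.6 and 11.3 CPM in Adn-Lpin1-/- LFD mice. Every Adn-Lpin1-/- LFD mouse lay below every WT mouse, with a log2 fold change of -0.45 ± 0.10 SE (0.732-fold, adjusted p = 0.00394) that was called under every alternative. On the HFD the means were 15.6 ± 1.96 and 12.8 ± 1.34 CPM, a log2 fold change of -0.29 ± 0.09 SE (adjusted p = 0.0391). That call was lost without WT HFD mouse 1, 3 or 4, without Adn-Lpin1-/- HFD mouse 1, 2 or 5 (adjusted p = 0.0528 to 0.107), with no limit on low counts (adjusted p = 0.0705), in a fit of only the 2 groups (adjusted p = 0.0794) and with the trend with GC content removed (log2 -0.18, adjusted p = 0.197).

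The other tested collagen receptor chain, Itga10, moved in another pattern, with its lowest levels in WT HFD mice. It was 2.08, 2.27, 2.11, 2.63 and 1.65 CPM in WT LFD, 1.20, 1.16, 1.33, 1.08 and 1.37 CPM in WT HFD, and 1.87, 1.46, 1.84, 2.80 and 2.22 CPM in Adn-Lpin1-/- HFD. The WT HFD mice lay below every mouse of both other groups. Relative to them, Adn-Lpin1-/- HFD mice were 1.65-fold higher (log2 0.73 ± 0.19 SE, adjusted p = 0.0113), a call kept under every alternative. On the LFD the means were 2.15 ± 0.354 CPM in WT and 2.33 ± 0.482 CPM in Adn-Lpin1-/- mice (adjusted p = 0.721).

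Among the laminin receptor chains, Itga3 rose on the LFD. This chain, which pairs with Itgb1 and is known from biliary and other epithelia, was 7.77, 8.86, 9.17, 6.41 and 9.93 CPM in WT LFD mice and 10.8, 13.5, 12.4, 12.8 and 13.2 CPM in Adn-Lpin1-/- LFD mice. The groups did not overlap, and the difference was 1.49-fold (log2 0.57 ± 0.12 SE, adjusted p = 0.00375), called under every alternative. On the HFD the log2 fold change was 0.31 ± 0.12 SE with an adjusted p of 0.0759. Itga7, the most abundant of the 3 per length, had log2 fold changes of -0.05 ± 0.10 and 0.09 ± 0.10, and Itga6, the partner of Itgb4 in hemidesmosomes, 0.34 ± 0.25 and 0.41 ± 0.25, all with an adjusted p above 0.05.

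Of the chains that bind RGD sites and other matrix ligands, Itgav was lower on both diets. Itgav (chr2:83724397-83806916), which pairs with Itgb3, Itgb5, Itgb6 or Itgb8, binds vitronectin and can activate latent TGF-beta. It was 16.3, 20.4, 16.1, 15.7 and 19.1 CPM in WT LFD mice and 12.5, 14.6, 11.6, 11.5 and 14.5 CPM in Adn-Lpin1-/- LFD mice, with no overlap (log2 -0.44 ± 0.12 SE, adjusted p = 0.0162). The call was lost without WT LFD mouse 2 (log2 -0.38, adjusted p = 0.0503). On the HFD it was 17.1, 20.2, 19.6, 21.9 and 13.7 CPM in WT and 13.5, 11.1, 14.4, 12.9 and 11.9 CPM in Adn-Lpin1-/- mice. WT mouse 5 alone lay within the Adn-Lpin1-/- range, and the log2 fold change was -0.54 ± 0.12 SE (0.69-fold, adjusted p = 0.00421), called under every alternative. Its main measured partner, Itgb5, had a log2 fold change of 0.08 ± 0.13 under the LFD and 0.18 ± 0.13 under the HFD (adjusted p = 0.731 and 0.336).

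Itga8, an RGD-binding chain of stellate and other mesenchymal cells, rose on the LFD. It was 1.49, 1.91, 0.774, 1.85 and 1.28 CPM in WT LFD mice and 2.08, 5.69, 2.90, 2.10 and 3.70 CPM in Adn-Lpin1-/- LFD mice. The groups did not overlap, and the difference was 2.24-fold (log2 1.16 ± 0.32 SE, adjusted p = 0.021). The call was lost without WT LFD mouse 3 (log2 1.00, adjusted p = 0.062) and without Adn-Lpin1-/- LFD mouse 2 (log2 0.88, adjusted p = 0.0784). On the HFD the means were 2.47 ± 0.51 and 3.79 ± 1.59 CPM (adjusted p = 0.169).

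Itga9, which binds tenascin and Vcam1, rose on the HFD, where it was 8.02, 9.05, 10.0, 9.32 and 9.54 CPM in WT mice and 19, 18.5, 14.4, 9.65 and 11.9 CPM in Adn-Lpin1-/- mice. All Adn-Lpin1-/- mice but mouse 4 lay above the WT range. The difference was 1.60-fold (log2 0.68 ± 0.23 SE, adjusted p = 0.0411), and the call was lost without any 1 of 9 mice, among them each of the 5 WT HFD mice (adjusted p up to 0.111), and with all genes kept, edgeR's own filter, the replicate block and the trend with GC content removed (adjusted p = 0.0527, 0.0528, 0.0647 and 0.0568), so that it lay at the threshold. For Itga5 the log2 fold change was 0.08 ± 0.12 under the LFD and 0.33 ± 0.12 under the HFD (adjusted p = 0.698 and 0.0545). Features of the other strand lie within the spans of Itgav (2), Itga9 (2) and Itga8 (1), and of the called laminin genes Lama2 (2), Lama3 (3) and Lamc1 (1). Their reads cannot be told apart where they overlap, since no source states that strand was used in counting.

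No matrix-binding beta chain was called on either diet by edgeR, DESeq2 or voom, and edgeR gave 0 on the LFD and 2 on the HFD at an unadjusted p under 0.05. Itgb1 was 119 to 134 CPM in WT and 118 to 135 CPM in Adn-Lpin1-/- mice on the LFD, against 124 to 141 CPM and 114 to 125 CPM on the HFD. Its log2 fold changes of 0.02 ± 0.06 and -0.13 ± 0.06 were the most tightly estimated of all members (adjusted p = 0.892 and 0.106). Itgb4, the hemidesmosome chain, had 0.36 ± 0.28 on the LFD and 0.67 ± 0.28 on the HFD (adjusted p = 0.415 and 0.0937) at 0.781 to 1.51 CPM.

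The laminin genes called in Adn-Lpin1-/- livers were higher, apart from Lama3. Of the 10 tested, 5 were called higher and 1 lower on the LFD (60.0%, where 14.4% of all genes were called). Under the HFD 4 were called higher (40.0%, where 18.6% were). The median log2 fold changes were 0.66 and 0.65. On each diet 9 of the 10 had a positive log2 fold change, and the other was Lama3 both times. Of all 13052 genes, 6685 had a positive log2 fold change on the LFD and 6565 on the HFD. Lama5 and Lamb2 were called on both diets.

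Lama5 (chr2:180176373-180225859), the alpha chain of bile duct and vascular basement membranes, was 4.79, 3.28, 3.99, 3.99 and 4.46 CPM in WT LFD mice and 5.45, 7.13, 6.73, 8.00 and 6.52 CPM in Adn-Lpin1-/- LFD mice. The groups did not overlap. On the HFD it was 4.52, 2.86, 3.41, 3.43 and 2.28 CPM in WT and 5.98, 4.09, 6.71, 5.40 and 5.80 CPM in Adn-Lpin1-/- mice, where WT mouse 1 and Adn-Lpin1-/- mouse 2 crossed. The fold changes were 1.65 on the LFD (log2 0.72 ± 0.16 SE, adjusted p = 0.00639) and 1.70 on the HFD (log2 0.76 ± 0.16 SE, adjusted p = 0.00399), both called under every alternative.

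Lamb2 (chr9:108479862-108490530), the beta chain of vessel wall and synaptic laminins, was 6.77, 4.34, 4.17, 4.59 and 5.20 CPM in WT LFD mice and 6.52, 10.5, 7.05, 6.69 and 10.0 CPM in Adn-Lpin1-/- LFD mice. WT mouse 1 lay within the Adn-Lpin1-/- range. On the HFD it was 5.71, 3.91, 4.82, 5.10 and 4.07 CPM in WT and 9.87, 7.20, 9.43, 7.42 and 7.25 CPM in Adn-Lpin1-/- mice, with no overlap. The fold changes were 1.62 (log2 0.70 ± 0.17 SE, adjusted p = 0.00833) and 1.74 (log2 0.80 ± 0.16 SE, adjusted p = 0.00308), again called under every alternative.

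The promoters of these genes, shown because they rose together on both diets, differ in composition. The 250 bases before the start of Lama5 (chr2:180225860-180226109, minus strand) hold 19 CpG dinucleotides and 4 GC boxes, the GGGCGG motif bound by Sp1, counted on both strands with its reverse complement CCGCCC. Those of Lamb2 (chr9:108479612-108479861, plus strand) hold 3 CpG and no GC box. A GC box is in 9 of the 27 member windows (33.3%) and in 32.7% of all windows. Both promoters hold 1 match to GAGGAA or TTCCTC. The sequences are from RefSeq (GRCm38.p6), 5′ to 3′ on the strand of the gene, with both motifs in capitals.
Lama5: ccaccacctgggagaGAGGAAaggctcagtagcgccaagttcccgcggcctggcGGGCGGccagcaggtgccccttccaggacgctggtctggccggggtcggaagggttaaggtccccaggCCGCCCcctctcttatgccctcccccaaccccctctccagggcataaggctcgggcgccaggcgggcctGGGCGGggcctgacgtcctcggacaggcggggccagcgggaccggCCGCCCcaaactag
Lamb2: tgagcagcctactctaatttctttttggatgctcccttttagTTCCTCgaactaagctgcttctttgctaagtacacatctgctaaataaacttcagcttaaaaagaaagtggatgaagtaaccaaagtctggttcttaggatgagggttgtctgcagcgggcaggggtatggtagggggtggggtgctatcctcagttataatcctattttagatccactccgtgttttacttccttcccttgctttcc

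Of the other alpha chains, Lama2, the laminin chain of muscle and of stellate cells, showed the highest fold among the laminins on the LFD. It was 0.669, 0.90, 0.953, 1.25 and 0.838 CPM in WT LFD mice and 1.21, 3.18, 2.30, 1.67 and 2.43 CPM in Adn-Lpin1-/- LFD mice. Only WT mouse 4 and Adn-Lpin1-/- mouse 1 crossed. The difference was 2.34-fold (log2 1.23 ± 0.29 SE, adjusted p = 0.00744), called under every alternative, and 1 WT LFD library was above 1 CPM against all 5 of Adn-Lpin1-/- LFD. On the HFD the log2 fold change was 0.67 ± 0.28 SE (adjusted p = 0.0923).

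Lama3, the alpha chain that partners Lamb3 in epithelial laminin, was the laminin that fell. It was 8.54, 7.29, 7.18, 7.92 and 4.26 CPM in WT LFD mice and 5.61, 4.07, 3.71, 4.15 and 3.28 CPM in Adn-Lpin1-/- LFD mice. WT mouse 5 alone lay among the Adn-Lpin1-/- mice, and the log2 fold change was -0.76 ± 0.19 SE (0.591-fold, adjusted p = 0.0109), called under every alternative. On the HFD, the means of 6.89 ± 1.11 and 5.66 ± 1.36 CPM did not differ at the threshold (log2 -0.28 ± 0.18 SE, adjusted p = 0.301). Within the span of Lama3 lie 4 other features, 3 of them on the other strand.

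Lama1, known from embryonic basement membranes, was 4.71, 4.20, 4.24, 4.23 and 4.21 CPM in WT HFD mice and 7.57, 7.68, 5.53, 4.30 and 5.51 CPM in Adn-Lpin1-/- HFD mice. The groups crossed by WT mouse 1 and Adn-Lpin1-/- mouse 4. The log2 fold change of 0.50 ± 0.16 SE (adjusted p = 0.0383) was lost without any 1 of 7 HFD mice, mouse 2 of the Adn-Lpin1-/- HFD group among them (log2 0.41, adjusted p = 0.117), with no limit on low counts (adjusted p = 0.0705) and with the trend with GC content removed (adjusted p = 0.0721). Lama4, the alpha chain of vascular endothelium, had a log2 fold change of 0.62 ± 0.26 under the LFD and 0.62 ± 0.25 under the HFD, with adjusted p of 0.113 and 0.092.

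Of the other beta chains, Lamb3 had the widest spread. It was 6.77, 5.62, 6.55, 11.3 and 3.27 CPM in WT HFD mice and 32.4, 24.4, 21.6, 6.30 and 6.5 CPM in Adn-Lpin1-/- HFD mice. Adn-Lpin1-/- HFD mice 1, 2 and 3 lay above every other mouse of the study, and mice 4 and 5 lay within the WT HFD range. The difference was 2.72-fold (log2 1.45 ± 0.38 SE, adjusted p = 0.0144, unadjusted exact permutation p = 0.0873), and it was not called in a fit of only the 2 groups (adjusted p = 0.0554). On the LFD, the means were 3.94 ± 0.676 and 8.10 ± 2.37 CPM, with a log2 fold change of 1.04 ± 0.40 SE and an adjusted p of 0.085 in the fit of all groups and 0.0081 in that of only the 2 groups.

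The same split of the Adn-Lpin1-/- HFD mice was seen in other measures. Summed over 5 adipocyte markers, mice 1 to 5 had 147, 184, 68.6, 6.96 and 3.96 CPM, nearly all from adipsin (Cfd, group mean 81.8 CPM), while adiponectin (Adipoq) averaged 0.027 CPM, Plin1 0.0178 CPM and leptin (Lep) 0.0096 CPM in that group. In WT HFD, Cfd averaged 5.83 CPM, Adipoq 0.189 CPM, Plin1 0.0146 CPM and Lep 0.0261 CPM. On the LFD, Adipoq averaged 0.908 CPM in WT and 0.0676 CPM in Adn-Lpin1-/- mice. Of these 4 genes only Cfd passed the limit on low counts. Summed over 10 stellate cell markers, Adn-Lpin1-/- HFD mice 1 to 5 had 466, 386, 293, 214 and 220 CPM. The part of these differences in Lamb3 was not tested.

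Lamb1, a beta chain of many basement membranes, was 6.56, 6.19, 3.57, 4.64 and 4.59 CPM in WT LFD mice and 7.03, 9.20, 7.51, 6.04 and 9.33 CPM in Adn-Lpin1-/- LFD mice. The groups overlapped by 3 mice. The log2 fold change of 0.61 ± 0.19 SE (adjusted p = 0.0368) was lost without WT LFD mouse 3, 4 or 5, without Adn-Lpin1-/- LFD mouse 2, 3 or 5 (adjusted p = 0.0529 to 0.106) and in voom with quality weights (adjusted p = 0.0536). Lamc1, the gamma chain of most laminins, was 14.9, 13.5, 12.3, 11.9 and 15.8 CPM in WT LFD mice and 16.5, 24.9, 17.2, 17 and 23.7 CPM in Adn-Lpin1-/- LFD mice. Every Adn-Lpin1-/- mouse lay above every WT mouse (1.45-fold, log2 0.54 ± 0.14 SE, adjusted p = 0.0172), and the call was lost without Adn-Lpin1-/- LFD mouse 2 or 5 (adjusted p = 0.0578 and 0.0524). Lamc3 had log2 fold changes of 0.86 ± 0.35 and 0.67 ± 0.35, with adjusted p of 0.111 and 0.186.

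**Figure D4:**
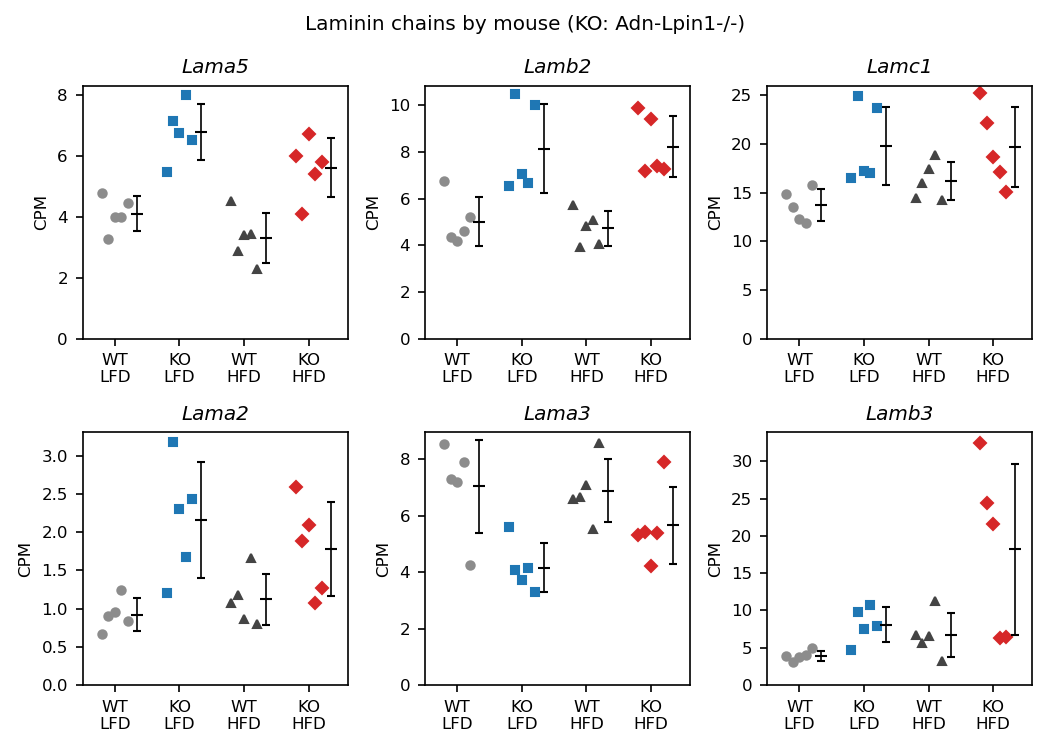
CPM of 6 laminin chains in each mouse (points, mice 1 to 5 from left to right within a group), with the mean and SD of the 5 mice beside them. Lama5 and Lamb2 are higher in Adn-Lpin1-/- mice on both diets, Lama3 is lower on the LFD, and Lamb3 is split in Adn-Lpin1-/- HFD between 3 mice at 21.6 CPM or more and 2 mice near 6 CPM.

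The makeup of the alpha chains was compared per length. As a share of the summed RPKM of the 5 alpha chains, Lama3 was 38% ± 6.12 in WT and 20.6% ± 5.68 in Adn-Lpin1-/- mice on the LFD, and 38.9% ± 6.55 and 25.5% ± 5.54 in these genotypes on the HFD (SD, n = 5 mice each). Lama5 was 21.3% ± 3.78, 31.3% ± 4.95, 17.5% ± 3.72 and 23.9% ± 4.80 in the same order. The share of Lama3 had unadjusted exact permutation p of 0.0159 on each diet, and that of Lama5 0.00794 on the LFD and 0.0397 on the HFD. Adjusted over the 22 shares tested (11 chains of the 3 families on 2 diets), these were 0.0873, 0.0873, 0.0873 and 0.146, so that none passed 0.05. As 0.00794 is the smallest p that 5 against 5 mice allow, none could pass unless several shares reached it. The adjusted values therefore do not show that the shares were alike. The shares of a family sum to 100% and are not independent. The summed alpha chain level itself was 1.71 ± 0.208 RPKM in WT and 1.91 ± 0.156 RPKM in Adn-Lpin1-/- mice on the LFD, and 1.65 ± 0.124 RPKM and 2.08 ± 0.249 RPKM on the HFD.

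**Figure D5:**
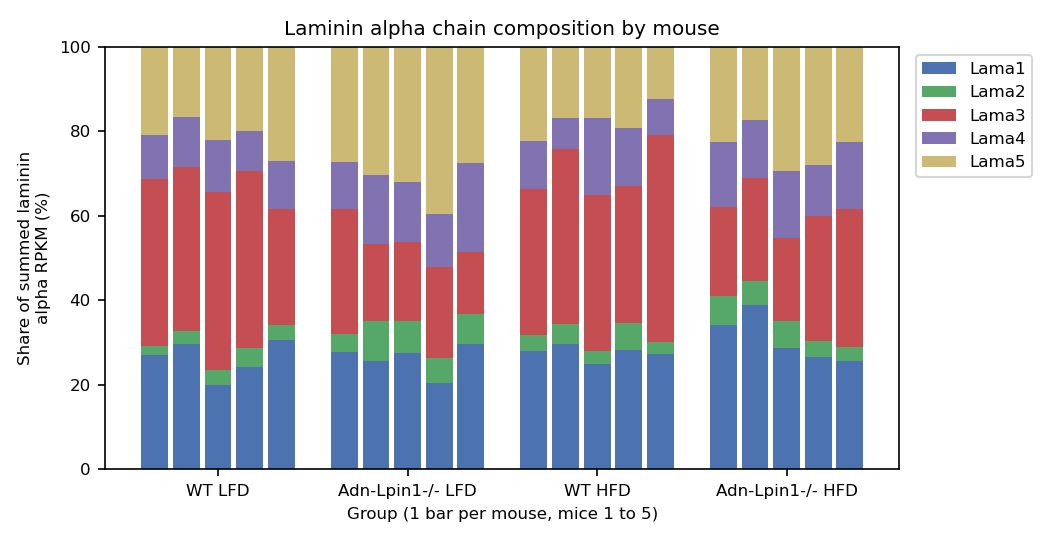
Share of each laminin alpha chain in the summed alpha chain RPKM, with 1 bar per mouse and the groups side by side. Lama3 takes 27.3% to 49.0% in WT mice and 14.7% to 32.6% in Adn-Lpin1-/- mice.

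Markers of the cells that make laminins were measured too. Of 10 stellate cell markers, 5 were called higher on the LFD (50.0%, where 14.4% of all genes were called) and 4 on the HFD (40.0%, where 18.6% were). Their summed levels were 99.6 to 199 CPM in WT and 202 to 426 CPM in Adn-Lpin1-/- mice on the LFD, and 181 to 259 CPM and 214 to 466 CPM on the HFD. Of 7 sinusoidal endothelial markers, 1 was called higher on the LFD (14.3%, near the 14.4% of all genes) and 3 on the HFD (42.9%, where 18.6% were). Their sums were 90.5 to 157, 117 to 236, 112 to 165 and 169 to 198 CPM in the same order. None of the 6 tested cholangiocyte markers was called by edgeR on either diet, where edgeR gave 3 at an unadjusted p under 0.05 for the LFD and 0 for the HFD, and their sums were 45.0 to 85, 54.2 to 110, 37.5 to 67.0 and 48.1 to 87.6 CPM. Of 5 smooth muscle and vessel wall markers, 3 were tested and 1, Tagln, was called on each diet (33.3%, where 14.4% and 18.6% of all genes were called). The sums of this list were 9.29 to 15.8, 15.5 to 21.9, 10.8 to 15.1 and 13.4 to 25.5 CPM. The mesothelial list (6 genes of which 3 were tested, none called by edgeR, 2 at an unadjusted p under 0.05 on the LFD and 0 on the HFD) was highest in Adn-Lpin1-/- LFD mouse 2, at 14.8 CPM against 7.12 CPM or less in every other mouse. That mouse also had the highest cholangiocyte sum of all mice (110 CPM) and the highest stellate cell sum of its group (426 CPM). Itga8, Lamb1 and Lamc1 lost their call without it, and each of these calls was also lost without another mouse. The part of these cells in the laminin and integrin differences was not tested.

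The proteins that laminins and integrins work with were taken as lists. Of 14 genes whose products bind laminin or its receptors, the LFD comparison called 4 higher and 1 lower (35.7%, where 14.4% of all genes were called), and the HFD comparison 4 higher (28.6%, where 18.6% were). The heparan sulfate proteoglycan perlecan, Hspg2, had log2 fold changes of 0.64 ± 0.16 (adjusted p = 0.011) and 0.68 ± 0.16 (adjusted p = 0.00679). Its relative agrin, Agrn, had 0.20 ± 0.06 (adjusted p = 0.0488) and 0.36 ± 0.06 (adjusted p = 0.00118). Galectin 3, Lgals3, a lectin of macrophages, was higher on the HFD (log2 1.03 ± 0.22, adjusted p = 0.00417) and not called on the LFD (adjusted p = 0.199). The one that was lower on the LFD was dystrophin, Dmd, which ties laminin receptors to actin (log2 -0.46 ± 0.11, adjusted p = 0.00902).

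Of 27 genes of integrin adaptors and activators, 24 were tested, of which 2 were higher and 1 lower on the LFD (12.5%, near the 14.4% of all genes) and 5 higher and 1 lower on the HFD (25.0%, where 18.6% of all genes were called). The actin crosslinker filamin A, Flna, had log2 fold changes of 0.68 ± 0.16 (adjusted p = 0.00777) and 0.78 ± 0.16 (adjusted p = 0.00272). The kindlins moved in opposite directions. Fermt2, the widely expressed kindlin, was lower on both diets (log2 -0.38 ± 0.08, adjusted p = 0.00384, and -0.29 ± 0.08, adjusted p = 0.016), whereas Fermt3, the kindlin of blood cells, was 4.08 CPM in WT HFD and 8.13 CPM in Adn-Lpin1-/- HFD (log2 0.99 ± 0.21, adjusted p = 0.00359) and not called on the LFD (adjusted p = 0.418).

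Of 24 genes of integrin ligands, 19 were tested, of which 4 were higher and 1 lower on the LFD (26.3%, where 14.4% of all genes were called) and 4 higher and 4 lower on the HFD (42.1%, where 18.6% were). The von Willebrand factor gene, Vwf, a ligand of the platelet receptor made by endothelium, had log2 fold changes of 1.17 ± 0.22 (adjusted p = 0.00187) and 1.06 ± 0.22 (adjusted p = 0.00307). Vitronectin, Vtn, a plasma ligand of Itgav receptors made by hepatocytes, was lower on both diets (log2 -0.49 ± 0.13, adjusted p = 0.0162, and -0.42 ± 0.13, adjusted p = 0.0305), and the fibrinogen chains Fga, Fgb and Fgg were lower on the HFD (adjusted p = 0.0292, 0.0354 and 0.0234). The latent TGF-beta binding protein Ltbp1 was higher on the LFD (log2 1.39 ± 0.34, adjusted p = 0.00904).

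The comparison of the diets asked what the HFD changed within a genotype. In WT mice edgeR called 1 of the 31 tested members, Itga10, where 1.10% of all genes were called. It fell by 0.80 on the log2 scale (SE 0.19, adjusted p = 0.0393) with no overlap between the groups, and the call was lost without any 1 of 11 mice (adjusted p up to 0.12) and in a fit of only the 2 groups (adjusted p = 0.0629). Itgb2l was lower in WT HFD mice by DESeq2 (log2 -0.97, adjusted p = 0.0266) and voom (adjusted p = 0.0368) and was not called by edgeR (adjusted p = 0.0966). Of the 7 tested leukocyte integrins, 6 had a negative log2 difference between the diets in WT, with a median of -0.36, and the WT HFD group is the one their HFD genotype folds are set against. In Adn-Lpin1-/- mice edgeR called none of the members, where 2.46% of all genes were called, although 7 had an unadjusted p under 0.05, and DESeq2 called 1, Itga7 (log2 0.33, adjusted p = 0.0399). Lamb3 had a log2 difference of 1.17 ± 0.38 SE there with an adjusted p of 0.116, which became 0.0428 without Adn-Lpin1-/- HFD mouse 4.

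The genotype effect itself was compared between the diets as the difference of the log2 fold changes, HFD minus LFD. No member was called, by edgeR or by DESeq2, and edgeR called 0% of all genes. At an unadjusted p under 0.05, 2 members (Itgb7 and Itga10) were found, where 7.19% of all genes were. The difference was 1.10 ± 0.43 SE for Itgb7 (unadjusted p = 0.0199, adjusted p = 0.628) and 0.61 ± 0.26 SE for Itga10 (unadjusted p = 0.0293, adjusted p = 0.66). All 7 tested leukocyte integrins had a larger log2 fold change on the HFD than on the LFD, by 0.43 to 1.10, with a median of 0.76 against 0.01 over all genes tested, and none of these differences passed the threshold. For the laminins the median difference was 0.02, with Lama5 at 0.04 ± 0.23 SE and Lamb2 at 0.10 ± 0.23 SE.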

How the data were processed

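Poly-A-selected RNA of liver was sequenced, and, per the labels and the methods of the study, the authors aligned reads to GRCm38 with STAR 2.5.1a, counted uniquely aligned unambiguous reads per gene with featureCounts 1.4.6-p5, and deposited the raw count, the CPM (counts scaled to the library total) and the RPKM (CPM per kilobase of exon) of each of 41388 features, for 24 libraries. Strand is not given in the sources used here. Only the deposited counts were tested. The deposited CPM and RPKM are the counts over the library total and, for the RPKM, the listed gene length, and entered no result. CPM and RPKM in the text were computed from the counts on TMM-scaled library sizes, and the RPKM divides by the length of all annotated exons of a gene.

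Symbols came from GENCODE vM21 and matched 97.3% of features. The members, the gene lists and the tests were chosen with earlier results of these data known. The 355 rRNA genes were left out, and 13052 genes that exceeded 1 CPM in 4 or more of the 20 single-mouse libraries were fitted in 1 model of 4 group means with edgeR 4.0.16 (R 4.3.3) and its quasi-likelihood test with Benjamini-Hochberg adjustment over all genes, at 0.05. Two-sided exact permutation tests used the mean log2(CPM + 0.5). Members are described by level, except 1 that is not reported here, and test values are given for members called in at least 1 contrast, in each contrast where called. Pathway genes named are the called ones with the lowest adjusted p in the genotype contrasts, up to 3 per list. Values of members that were not called, markers, Dmd and the fibrinogens were chosen after their values were seen.

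Alternatives were DESeq2 1.42.0 size factors and Wald test, voom with quality weights (limma 3.58.1), no limit on low counts, edgeR's default limit, a fit restricted to the 2 groups of a comparison, a replicate block, removal of a trend with GC content, and each mouse left out. Nothing shows separate cages or extraction days, so p-values measure the spread between these mice. The scripts were tested on simulated data.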

Additional observations from a re-analysis of the deposited data

Results flagged for a closer look

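In 5 of the 76 groups of 5 mice examined (the members called for genotype, 4 groups each), 1 mouse lay far from the others by Dixon's gap test, where chance gives about 1 in 20. Itgb7 was 0.52 CPM in WT HFD mouse 4, where the others had 1.13 to 1.30 CPM, and 4.25 CPM in Adn-Lpin1-/- HFD mouse 2, where the others had 1.35 to 2.11 CPM. Itga1 was 13.7 CPM in Adn-Lpin1-/- LFD mouse 2 against 11.3 to 11.9 CPM, and 10.5 CPM in Adn-Lpin1-/- HFD mouse 1 against 12.9 to 13.8 CPM. Lama1 was 4.71 CPM in WT HFD mouse 1 against 4.20 to 4.24 CPM in the other WT HFD mice.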

How the results depend on the processing

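Of 24 calls of a member in a contrast, 11 held in all 28 alternatives, 13 were lost in at least 1, and no sign changed. The members called for genotype numbered 10 on the LFD (7 to 10 with 1 mouse left out, 7 without Adn-Lpin1-/- LFD mouse 2) and 13 on the HFD, with 6 to 17 when 1 mouse was left out, 6 without Adn-Lpin1-/- HFD mouse 2 and 17 without mouse 4. For diet in WT the 1 call became 2 with DESeq2 and with voom and 0 with no limit on low counts and in a fit of only the 2 groups, and was 0 to 1 with a mouse left out. For diet in Adn-Lpin1-/- mice 0 became 1 with DESeq2 and 0 to 1 with a mouse left out. The cause of these changes was not tested. With the replicate block, the counts were 10 and 13 for genotype on the LFD and the HFD, 0 for diet in WT, 0 for diet in Adn-Lpin1-/- and 0 for the difference between the diets. For the HFD, the block lost Itga9 (adjusted p = 0.0647) and gained Itgam (adjusted p = 0.0343). Mice of the same number did not deviate together over all genes tested (median r = -0.01 over 30 pairs, 6 above 0.1, 5 of 20 mice closest to their own number). No pairing by number was thus seen at that scale. The labels give no litter or cage, so that shared litters could not be checked. Over all genes, calls for diet in WT were 144, against 400 with DESeq2, 670 with voom, 72 with only the 2 groups, 90 with the replicate block and 55 to 289 with a mouse left out. For diet in Adn-Lpin1-/- mice they were 321, against 577 with DESeq2, 161 with only the 2 groups, 214 with the replicate block and 123 to 378 with a mouse left out. Genotype calls over all genes were 1210 (without WT LFD mouse 3) to 1959 on the LFD and 1475 (without Adn-Lpin1-/- HFD mouse 2) to 2756 on the HFD with a mouse left out, against 1877 and 2434 with all mice, and DESeq2 called 30 genes for the difference between the diets. Members near 1 CPM rest on few reads, and 7 members were under the limit.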

Other observations

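The pooled libraries, which entered no comparison, hold the RNA of the same mice once more. Of the 31 tested members, 21 in WT and 29 in Adn-Lpin1-/- mice on the LFD, and 23 and 26 on the HFD, had a pool value between the lowest and the highest of the 5 single mice.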
